A study of Mus musculus with 19 samples.

Results

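The Fc gamma receptors and the genes that work with them were followed across mouse microglia: the alpha chains Fcgr1, Fcgr3 and Fcgr4, the shared signalling chain Fcer1g, the inhibitory receptor Fcgr2b, and Fcgrt, the large chain of the neonatal Fc receptor. These 6 genes were chosen by symbol out of 23951 genes in each of the deposited expression tables, and all 6 were found and passed the filter on low values in both tables. The libraries were made from hippocampal microglia sorted for CD11b and CD45, and all groups carried 1 Cx3cr1CreER allele and received tamoxifen (50 mg/kg on 5 days). At 4.5 months of age there were 3 groups of 3 libraries: CK-p25 mice that also carried PU.1 fl/fl (CK-p25 PU.1 cKO), CK-p25 mice, and CK mice. They were collected at 6 weeks, and whether these count from tamoxifen or from the induction of p25 is not resolved here. CK-p25 is an inducible mouse model in which p25, a truncated activator of the kinase Cdk5, is expressed in forebrain neurons, and CK mice carry the driver without p25. Cx3cr1CreER acts in microglia and in other cells that express Cx3cr1, monocytes among them. PU.1, encoded by Spi1, is a transcription factor of the myeloid lineage. At 3 months of age there were 3 libraries labelled PU.1 cKO (PU.1 fl/fl; Cx3cr1CreER+/-) and 3 labelled control (Cx3cr1CreER+/-), collected 1 week after the injections. The labels do not tie the libraries to separate mice, so the p-values measure the spread between libraries, which may be technical.

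Fc gamma receptors bind the constant part of IgG, so that antibody-coated material is recognised by macrophages and microglia. Most activating alpha chains have no signalling motif of their own and depend on the gamma chain Fcer1g, whose ITAM motif recruits the kinase Syk after Src-family kinases have phosphorylated it; Fcgr2b carries an inhibitory ITIM motif instead and acts through the phosphatase Inpp5d (SHIP1). Fcgrt pairs with B2m and protects internalised IgG and albumin from degradation.

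The values are FPKM as deposited, so levels are per transcript length and genes can be compared within a table. Differences are given on the log2(FPKM + 1) scale and were tested with limma (two-sided) across every gene whose mean reached 1 FPKM. P-values were adjusted by the Benjamini-Hochberg method, and an adjusted p below 0.05 counted as passing the test. The depth of the libraries is unknown. The deposited FPKM summed to between 449784 and 622613 in the 3-month libraries and to between 475007 and 650063 in the 4.5-month libraries. All 10 microglial markers listed were detected in every group. Neutrophil and monocyte markers varied between single libraries: the 7 neutrophil markers in the table summed to between 47.7 and 281 FPKM in the labelled PU.1 cKO libraries and to 11505, 124 and 79.7 FPKM in the labelled control libraries, of which replicate 1 stood apart and also had the highest sum of monocyte markers (1018 FPKM). At 4.5 months they summed to 799 FPKM in CK-p25 replicate 2. CK-p25 replicate 3 carries another sequencing-file prefix in its labels than the other 8 libraries of its table. In bulk libraries, fewer cells of a kind and less RNA per cell cannot be told apart.

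The 3-month labels contradict each other. The titles and descriptions put the libraries whose columns are named for Cx3cr1 in the PU.1 cKO group. They put those whose columns are named for PU.1 in the control group, while the source names point the other way. The titles were followed, and the other reading turns every sign at this age. Spi1 itself went against the titles: it was 409, 338 and 337 FPKM in the labelled PU.1 cKO libraries, against 261, 105 and 248 FPKM in the labelled control libraries (log2 difference 0.92 ± 0.35 SE, limma adjusted p = 0.0853). That difference passed under quantile normalization (1.14, limma adjusted p = 0.0126) and without labelled control replicate 2, the lowest library, where it was 0.50 (limma adjusted p = 0.0478). The read-out of Spi1 covers the whole gene and not the deleted part alone. At 4.5 months Spi1 was 165, 152 and 224 FPKM in the CK-p25 PU.1 cKO libraries, 251, 208 and 298 FPKM in CK-p25 libraries and 256, 229.7 and 251 FPKM in CK libraries. The differences of CK-p25 PU.1 cKO from CK-p25 (-0.49 ± 0.17, limma adjusted p = 0.745) and from CK (-0.46 ± 0.17, limma adjusted p = 0.0751) did not pass the threshold. The difference from CK passed in 3 of 8 other settings. Among them were quantile normalization (-0.85, limma adjusted p = 0.00495) and a fit of these 2 groups alone (-0.46, limma adjusted p = 0.0464). It also passed in 2 of 9 fits without 1 library (limma adjusted p down to 0.0221).

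Promoters were searched because PU.1 was the deleted factor. Windows of 250 bases before to 50 bases after the annotated start were read from RefSeq (GRCm38.p6, 6 of 6 genes matched) and searched on both strands for GAGGAA, the core of the PU.1 motif. Matches are in capitals, and each of these windows held at most 1. GAGGAA occurred in Fcgr4, Fcgr1 and Fcgr3, each time on the opposite strand and so printed as TTCCTC, and in 28.3% of the 32851 promoters in the table. The windows of Fcgr2b, Fcer1g and Fcgrt held none. The 3 promoters with a match are shown 5′ to 3′ on the strand of the gene.
Fcgr4: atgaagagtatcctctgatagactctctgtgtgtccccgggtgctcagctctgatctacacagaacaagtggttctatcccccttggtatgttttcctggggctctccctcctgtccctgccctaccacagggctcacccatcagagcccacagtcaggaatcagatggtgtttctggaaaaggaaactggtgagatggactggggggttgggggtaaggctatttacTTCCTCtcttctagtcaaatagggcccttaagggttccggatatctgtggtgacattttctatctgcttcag
Fcgr1: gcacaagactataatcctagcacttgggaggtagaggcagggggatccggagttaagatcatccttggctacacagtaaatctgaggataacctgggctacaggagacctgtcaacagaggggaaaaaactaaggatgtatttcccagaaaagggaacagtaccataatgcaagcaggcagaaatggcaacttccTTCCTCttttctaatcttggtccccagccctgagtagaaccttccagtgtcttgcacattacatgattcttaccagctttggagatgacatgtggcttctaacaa
Fcgr3: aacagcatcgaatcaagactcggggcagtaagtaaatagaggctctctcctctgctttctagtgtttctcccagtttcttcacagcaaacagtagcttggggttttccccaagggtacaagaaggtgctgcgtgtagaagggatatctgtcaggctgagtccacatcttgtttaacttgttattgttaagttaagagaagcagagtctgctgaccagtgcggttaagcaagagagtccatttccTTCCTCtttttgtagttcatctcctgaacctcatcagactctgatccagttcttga
The Fcgr4 window lies at chr1:171018676-171018975 on the plus strand, with the match 22 bases before the start. The Fcgr1 window lies at chr3:96293920-96294219 on the minus strand, with the match 55 bases before the start. The Fcgr3 window lies at chr1:171059354-171059653 on the minus strand, with the match 6 bases before the start; a start site 9 bases further downstream is also annotated. A match describes the letters in the window and not binding of a factor.

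At 4.5 months Fcgr4, Fcgr2b and Fcer1g rose in CK-p25 microglia, Fcgr4 by far the most, and the same 3 genes rose in CK-p25 PU.1 cKO microglia. Fcgr1, Fcgr3 and Fcgrt did not pass the test in either comparison. No member passed the test between CK-p25 PU.1 cKO and CK-p25. The 2 comparisons with CK share the CK libraries and are not independent of each other.

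**Figure D1:**
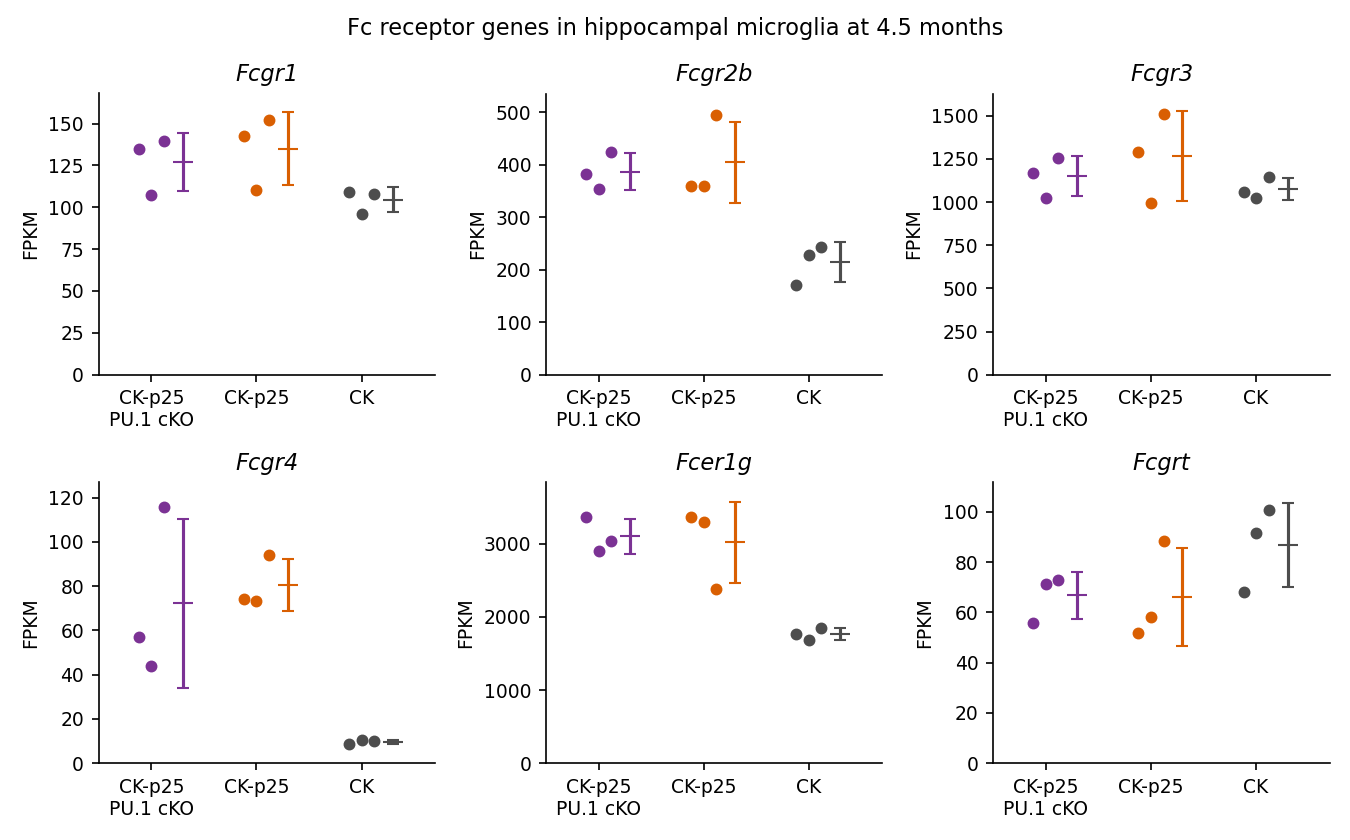
FPKM of the 6 genes in the 9 libraries of the 4.5-month table, 1 panel per gene with a linear axis from 0, 1 point per library, and beside the points the mean with bars of 1 SD. Fcgr4 lay between 43.9 and 116 FPKM in the 6 libraries with p25 and between 8.64 and 10.3 FPKM in the CK libraries, whereas the Fcgr3 points of the 3 groups overlapped.

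Fcgr4, an activating receptor for IgG2a and IgG2b, was 57.1, 43.9 and 116 FPKM in the CK-p25 PU.1 cKO libraries, 74.1, 73.4 and 94.2 FPKM in the CK-p25 libraries, and 8.64, 10.3 and 10.2 FPKM in the CK libraries. Every library with p25 was above every CK library, and the spread was widest in CK-p25 PU.1 cKO, where replicate 3 was highest. The log2 difference from CK was 2.65 ± 0.31 (SE) in CK-p25 PU.1 cKO (limma adjusted p = 0.000495) and 2.92 ± 0.31 in CK-p25 (limma adjusted p = 0.000313), and the ratio of mean FPKM was 7.43 and 8.29. With replicate 3 of CK-p25 PU.1 cKO left out, the first difference was 2.26. Of all genes tested, 1.41% had a larger difference in the first comparison and 1.04% in the second. In rank among all 23951 genes by mean FPKM, Fcgr4 stood at 1158 in CK-p25 PU.1 cKO and 1063 in CK-p25, and at 5715 in CK.

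Fcgr4 is also expressed by monocytes and neutrophils, whose markers were present in some libraries. The 7 monocyte markers summed to 35.2, 57.4 and 56.7 FPKM in the CK-p25 PU.1 cKO libraries, 18.1, 53.8 and 17.4 FPKM in CK-p25, and 3.87, 18.7 and 11.2 FPKM in CK; 1 of the 5 tested was higher in each comparison with CK, Fn1. The neutrophil sums were 28.7, 159 and 52.6 FPKM in the CK-p25 PU.1 cKO libraries, 1.82, 799 and 2.65 FPKM in CK-p25, and 2.70, 113 and 78.9 FPKM in CK, and none of the 7 neutrophil markers passed the test. In the CK-p25 libraries with neutrophil sums of 1.82, 799 and 2.65 FPKM, Fcgr4 was 74.1, 73.4 and 94.2 FPKM, in that order. Natural killer cell markers summed to between 1.61 and 8.67 FPKM in the CK-p25 PU.1 cKO libraries, between 2.05 and 4.10 FPKM in CK-p25 and between 0.0630 and 0.703 FPKM in CK, where Ncr1 was at 0. Klrb1c was the only 1 of these 7 markers tested, and it was higher in both comparisons, with log2 differences from CK of 1.40 and 1.39. It averaged 1.74 ± 0.25 FPKM in CK-p25 PU.1 cKO, 1.72 ± 0.33 FPKM in CK-p25 and 0.033 ± 0.031 FPKM in CK (SD, n = 3 each). Klrb1c and the monocyte marker Fn1, which averaged 0.346 FPKM in CK, both lay below the filter of 1 FPKM in CK. They reached it through libraries with p25, so the filter favoured the direction of these calls. The part of monocytes, neutrophils and natural killer cells in the Fcgr4 result was not tested.

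Fcgr2b, the inhibitory receptor, was 382, 355 and 425 FPKM in the CK-p25 PU.1 cKO libraries, 359, 360.1 and 494 FPKM in the CK-p25 libraries, and 172, 229 and 244 FPKM in the CK libraries. The groups with p25 overlapped each other and lay above CK throughout. The log2 difference from CK was 0.86 ± 0.17 in CK-p25 PU.1 cKO (limma adjusted p = 0.00640) and 0.91 ± 0.17 in CK-p25 (limma adjusted p = 0.00498). Under quantile normalization the differences were 0.46 (limma adjusted p = 0.110) and 0.46 (limma adjusted p = 0.112), so neither call held there.

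Fcer1g, the signalling chain, was 3361, 2895 and 3044 FPKM in the CK-p25 PU.1 cKO libraries, 3372, 3298 and 2387 FPKM in the CK-p25 libraries, and 1764, 1679 and 1852 FPKM in the CK libraries. CK-p25 replicate 3, the library with the other file prefix, was the lowest of the libraries with p25 and still above all CK libraries. The log2 difference from CK was 0.81 ± 0.14 in CK-p25 PU.1 cKO (limma adjusted p = 0.00344) and 0.76 ± 0.14 in CK-p25 (limma adjusted p = 0.00487). Under quantile normalization the differences were smaller, 0.54 in CK-p25 PU.1 cKO (limma adjusted p = 0.00963) and 0.46 in CK-p25 (limma adjusted p = 0.0206), and both passed. Without the low-value filter the CK-p25 difference had a limma adjusted p of 0.0532. Without CK-p25 replicate 3, and so among libraries of 1 file prefix, the CK-p25 differences were 0.92 for Fcer1g, 0.76 for Fcgr2b and 2.80 for Fcgr4, with limma adjusted p-values of 0.000366, 0.00726 and 0.000952.

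Fcgr3, the low-affinity activating receptor, was the most abundant alpha chain. It was 1167, 1025 and 1257 FPKM in the CK-p25 PU.1 cKO libraries, 1289, 997 and 1513 FPKM in CK-p25 libraries, and 1056, 1021 and 1145 FPKM in CK libraries. The groups overlapped, and the log2 difference from CK was 0.095 in CK-p25 PU.1 cKO (95% interval -0.26 to 0.45) and 0.22 in CK-p25 (-0.14 to 0.57). Quantile normalization turned both signs, to -0.23 and -0.30, again short of the threshold. Fcgr2b and Fcgr3 have nearly identical extracellular parts in the mouse, and how the authors' counting divided shared reads between them is not given in the sources used here, so the split between this pair is uncertain. RefSeq also places small RNA genes within Fcgr3 and Fcgr4, and the libraries do not mark strand.

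Fcgr1, the high-affinity receptor for IgG2a, was 135, 107 and 139 FPKM in the CK-p25 PU.1 cKO libraries, 142, 110.3 and 152 FPKM in CK-p25 libraries, and 109, 95.7 and 108 FPKM in CK libraries. All CK-p25 libraries were above all CK libraries, the lowest of them by about 1 FPKM, while CK-p25 PU.1 cKO overlapped CK. The log2 difference from CK was 0.28 ± 0.15 in CK-p25 PU.1 cKO (limma adjusted p = 0.195) and 0.36 ± 0.15 in CK-p25 (limma adjusted p = 0.101). Without CK-p25 replicate 2 the CK-p25 difference was 0.49 and passed (limma adjusted p = 0.0281).

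Fcgrt was 56.0, 71.2 and 73.0 FPKM in the CK-p25 PU.1 cKO libraries, 51.8, 58.2 and 88.4 FPKM in CK-p25 libraries, and 68.1, 91.7 and 101 FPKM in CK libraries. The groups overlapped, and the log2 difference from CK was -0.37 ± 0.22 in CK-p25 PU.1 cKO (limma adjusted p = 0.257) and -0.41 ± 0.22 in CK-p25 (limma adjusted p = 0.204). Without CK-p25 replicate 3 the CK-p25 difference was -0.63 and passed (limma adjusted p = 0.0297). Its partner B2m, the light chain it shares with class I molecules, was 14367, 11447 and 13181 FPKM in the CK-p25 PU.1 cKO libraries, 13899.9, 13903 and 7807 FPKM in CK-p25, and 4364, 3468 and 3495 FPKM in CK. B2m rose by 1.79 ± 0.23 in CK-p25 PU.1 cKO (limma adjusted p = 0.000826) and by 1.61 ± 0.23 in CK-p25 (limma adjusted p = 0.00135) on the log2 scale, while the Fcgrt estimates were below 0. Without the low-value filter the CK-p25 difference of B2m had a limma adjusted p of 0.0664.

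By count, 3 of the 6 genes were higher and 0 lower in CK-p25 PU.1 cKO than in CK, where 17.8% of the 10894 genes tested were called higher and 13.3% lower (31.1% in all). In CK-p25 against CK it was likewise 3 higher and 0 lower, where 17.6% of genes were called higher and 13.7% lower (31.3% in all). The groups did not overlap for 3 of 6 genes in the first comparison, all higher (29.4% of all genes, and 58.5% in either direction), and for 4 of 6 in the second, all higher (24% of all genes, and 46.5% in either direction). The median log2 difference of the 6 genes was 0.54 in CK-p25 PU.1 cKO and 0.56 in CK-p25, with -0.00097 and -0.00025 over all genes. The share of higher genes among all calls depended on the scaling: it was 57.2% in CK-p25 PU.1 cKO and 56.3% in CK-p25, and 45.9% and 45.6% under quantile normalization.

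**Figure D2:**
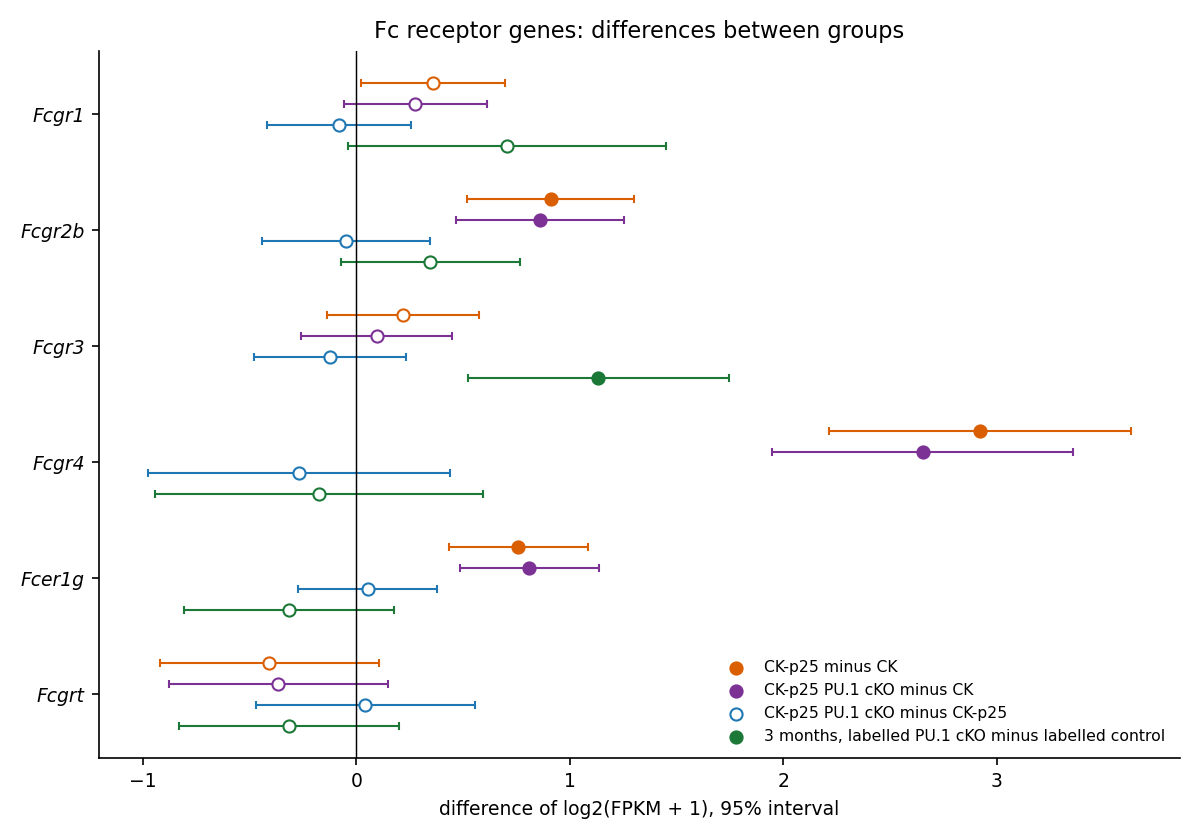
Log2 differences of the 6 genes in the 4 comparisons with 95% intervals from limma, 1 colour per comparison, filled symbols where the adjusted p was below 0.05 and open symbols elsewhere. The Fcgr4 estimates against CK, at 2.65 and 2.92, stand far right of the others, and every interval of the comparison of CK-p25 PU.1 cKO with CK-p25 spans 0.

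Deletion of PU.1 within the p25 background was compared directly. All 6 genes overlapped between CK-p25 PU.1 cKO and CK-p25, and 0 of 6 were called, as were 0% of the 10894 genes tested with limma, where 671 genes had an unadjusted p below 0.05. The groups did not overlap for 9.38% of all genes, with CK-p25 PU.1 cKO higher for 4.82% and lower for 4.56%. The log2 difference was -0.27 for Fcgr4 (95% interval -0.98 to 0.44), -0.05 for Fcgr2b (-0.44 to 0.34) and 0.05 for Fcer1g (-0.27 to 0.38). For the others it was -0.08 for Fcgr1 (-0.42 to 0.26), -0.12 for Fcgr3 (-0.48 to 0.23) and 0.04 for Fcgrt (-0.47 to 0.56). The Fcgr4 estimate moved with single libraries: it was -0.66 with replicate 3 of CK-p25 PU.1 cKO left out (limma adjusted p = 0.269) and 0.0234 with its replicate 2 left out. The median over the 6 genes was -0.07, beside 0 to 2 decimals over all genes.

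The mix of receptors differed in level. The ratio of Fcgr2b to Fcgr3 was 0.327, 0.346 and 0.338 in CK-p25 PU.1 cKO libraries, 0.279, 0.361 and 0.327 in CK-p25 libraries, and 0.163, 0.224 and 0.213 in CK libraries. These ratios do not move with library scaling, and those of CK lay below those of both groups with p25. How shared reads were divided between Fcgr2b and Fcgr3 is not given, and that uncertainty carries over to their ratio. Of the summed alpha chain FPKM, Fcgr4 made up 4.04% on average in CK-p25 PU.1 cKO, 4.31% in CK-p25 and 0.693% in CK, and Fcgr3 made up 66.3%, 67.0% and 76.6%. Fcgr1 had a share of 7.32% in CK-p25 PU.1 cKO, 7.18% in CK-p25 and 7.45% in CK. The ratio of Fcer1g to the summed activating alpha chains Fcgr1, Fcgr3 and Fcgr4 was 2.47, 2.46 and 2.01 in CK-p25 PU.1 cKO libraries, 2.24, 2.79 and 1.36 in CK-p25 libraries, and 1.50, 1.49 and 1.47 in CK libraries. CK-p25 replicate 3 was below the CK libraries here, whereas the other 5 libraries with p25 were above them. These ratios are descriptions with no test.

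**Figure D3:**
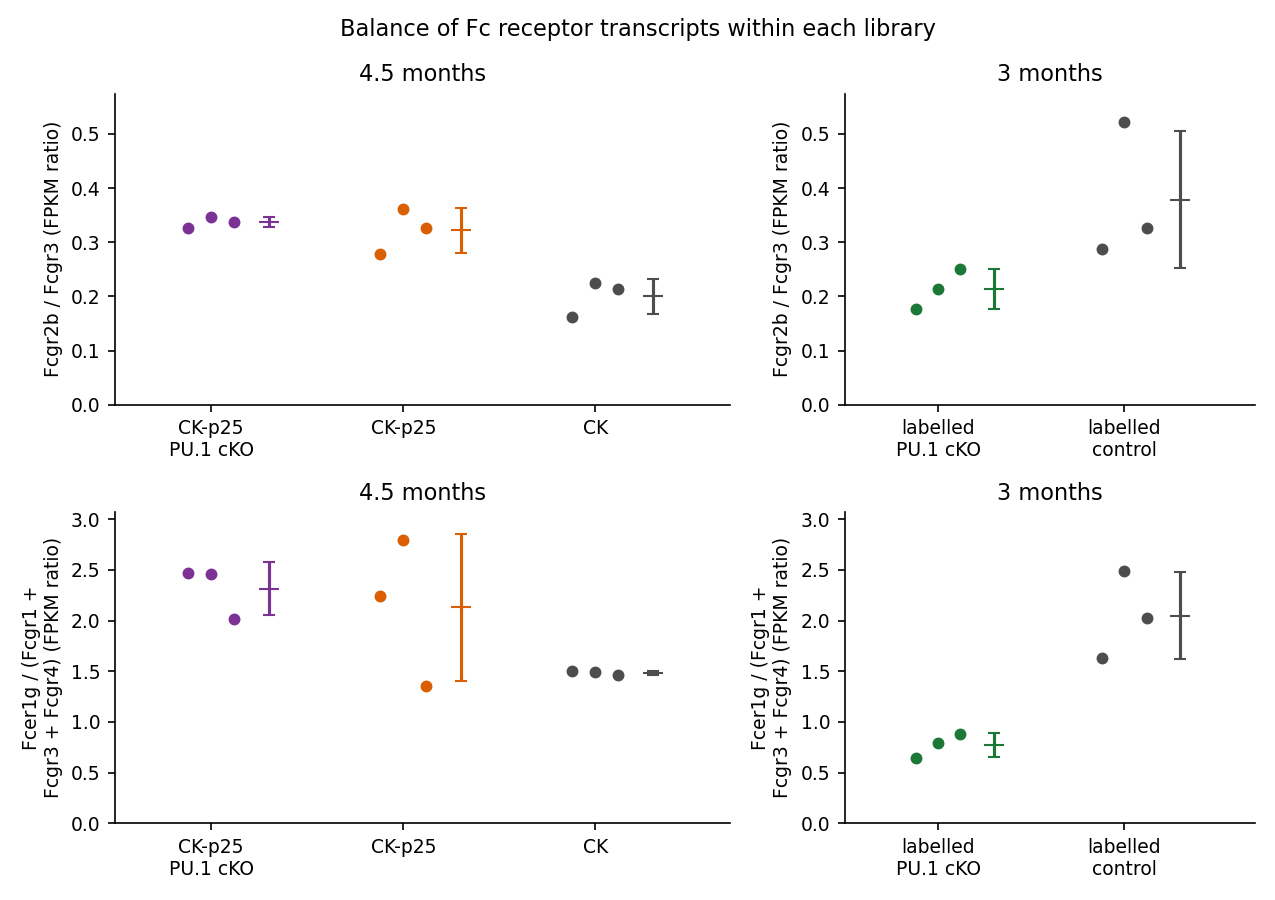
Ratios of FPKM between members in each library of both tables, 1 point per library with the mean and bars of 1 SD beside them, Fcgr2b over Fcgr3 above and Fcer1g over the summed activating alpha chains below. The ratio of Fcgr2b to Fcgr3 lay between 0.279 and 0.361 in libraries with p25 and between 0.163 and 0.224 in CK libraries, and at 3 months between 0.177 and 0.250 in labelled PU.1 cKO and between 0.287 and 0.522 in labelled control libraries.

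In order of mean level, Fcer1g stood first, followed by Fcgr3, Fcgr2b and Fcgr1, in all 3 groups at 4.5 months. Fcgr4 came before Fcgrt in CK-p25 PU.1 cKO and CK-p25, with overlapping values between them, and last in CK, below Fcgrt in every library. Fcgr1 overlapped its lower neighbour in CK-p25 PU.1 cKO (Fcgr4) and in CK (Fcgrt). Fcer1g ranked 21st, 23rd and 29th of all genes by mean FPKM in the CK-p25 PU.1 cKO libraries, CK-p25 and CK.

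At 3 months Fcgr3 alone of the 6 genes passed the test, and it was higher in the libraries labelled PU.1 cKO. Fcgr3 was 1932, 1325 and 1387 FPKM in labelled PU.1 cKO libraries, against 804, 529 and 789 FPKM in labelled control libraries. The groups did not overlap, and the log2 difference was 1.13 ± 0.26 (SE, limma adjusted p = 0.0172), with a ratio of mean FPKM of 2.19. The call was lost without labelled PU.1 cKO replicate 1 (0.96, limma adjusted p = 0.0677), replicate 2 (1.24, limma adjusted p = 0.0509) or replicate 3 (1.20, limma adjusted p = 0.0573), and without the low-value filter (1.13, limma adjusted p = 0.0571). Without labelled control replicate 1, the library with the high neutrophil markers, it was 1.24 (limma adjusted p = 0.0406).

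Fcgr1 was 115, 115 and 143 FPKM in labelled PU.1 cKO libraries, against 81.4, 46.4 and 113 FPKM in labelled control libraries. Fcgr2b was 343, 283 and 347 FPKM in labelled PU.1 cKO libraries, against 231, 276 and 257 FPKM in labelled control libraries. Neither gene overlapped between the groups, with labelled PU.1 cKO above, and neither passed: the log2 difference was 0.71 ± 0.32 for Fcgr1 (limma adjusted p = 0.130) and 0.35 ± 0.18 for Fcgr2b (limma adjusted p = 0.178). Fcgr1 passed without labelled control replicate 3 (1.00, limma adjusted p = 0.0427) and under quantile normalization (1.02, limma adjusted p = 0.0104).

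Fcer1g ran the other way. It was 1336, 1154 and 1354 FPKM in labelled PU.1 cKO libraries, against 1480.2, 1456 and 1868 FPKM in labelled control libraries, without overlap, for a log2 difference of -0.32 ± 0.21 (limma adjusted p = 0.283); under quantile normalization it was -0.61 and passed (limma adjusted p = 0.0231). The ratio of the gamma chain to the activating alpha chains was 0.648, 0.795 and 0.876 in labelled PU.1 cKO libraries and 1.63, 2.49 and 2.03 in labelled control libraries. Every labelled PU.1 cKO library was below 1 and every labelled control library above it, and in the order of mean levels Fcgr3 stood before Fcer1g, with overlap, in labelled PU.1 cKO only.

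Fcgr4 was 14.0, 11.8 and 17.3 FPKM in labelled PU.1 cKO libraries, against 22.4, 9.32 and 20.2 FPKM in labelled control libraries. Fcgrt was 201, 151 and 174 FPKM in labelled PU.1 cKO libraries, against 193, 279.8 and 189 FPKM in labelled control libraries. Both overlapped, with log2 differences of -0.18 ± 0.33 for Fcgr4 (limma adjusted p = 0.696) and -0.32 ± 0.22 for Fcgrt (limma adjusted p = 0.303). Without labelled control replicate 1 the differences were 0.04 for Fcgr4, 0.76 for Fcgr1, 0.28 for Fcgr2b, -0.37 for Fcer1g and -0.40 for Fcgrt, and none of these passed.

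**Figure D4:**
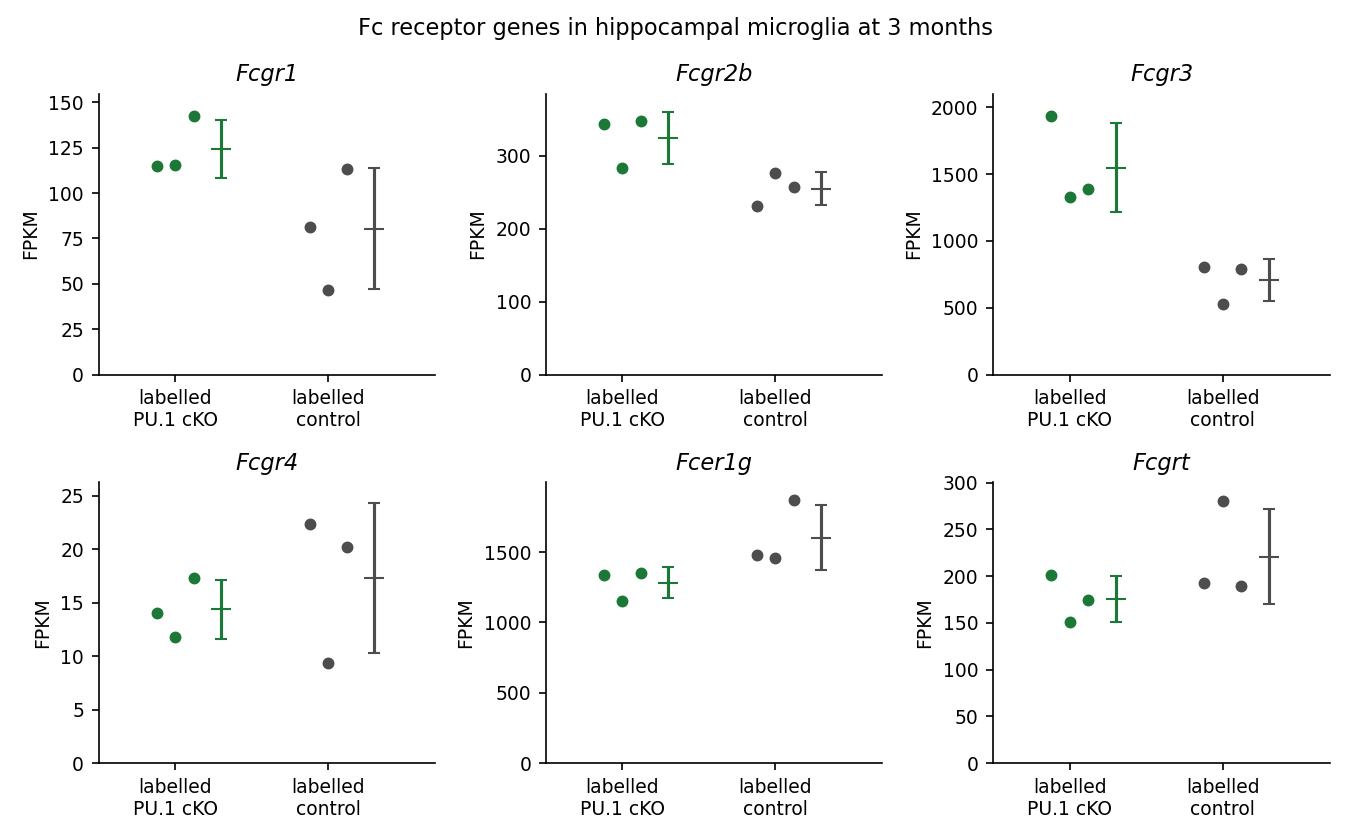
FPKM of the 6 genes in the 6 libraries of the 3-month table, 1 panel per gene with a linear axis from 0, 1 point per library, groups as labelled, and beside the points the mean with bars of 1 SD. Fcgr3 lay between 1325 and 1932 FPKM in labelled PU.1 cKO libraries and between 529 and 804 FPKM in labelled control libraries; the Fcgr4 and Fcgrt points overlapped.

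By count, 1 of 6 genes was higher and 0 lower in labelled PU.1 cKO, where 12.4% of the 10845 genes tested were called higher and 17.8% lower (30.1% in all). The groups did not overlap for 4 of 6 genes, 3 higher and 1 lower, beside 48.8% of all genes (21.9% higher and 26.9% lower). The median of the 6 genes was 0.08, and that of all genes -0.03, which quantile normalization moved to 0.09. The share of higher genes among all calls was 41.1%, and 53.0% under quantile normalization. The 10 microglial markers summed to between 28489 and 32846 FPKM in labelled PU.1 cKO and between 8288 and 14948 FPKM in labelled control libraries, with 9 of 10 higher. The 8 border macrophage markers summed to between 328 and 389.8 FPKM in labelled PU.1 cKO and between 557 and 1688 FPKM in labelled control, with 5 of 8 lower. The part of either cell type in the Fcgr3 and Fcer1g values was not tested. At 4.5 months the microglial markers summed to between 15567 and 17547 FPKM in the CK-p25 PU.1 cKO libraries, between 17016 and 18857 FPKM in CK-p25 and between 25939 and 28327 FPKM in CK.

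The signalling genes behind the receptors did not move in 1 direction. Of 37 listed genes 36 were tested at 4.5 months; 6 were higher and 8 lower in CK-p25 PU.1 cKO than in CK (median -0.13), and 6 were higher and 9 lower in CK-p25 than in CK (median -0.08). Over all genes tested 17.8% were higher and 13.3% lower in CK-p25 PU.1 cKO, and 17.6% higher and 13.7% lower in CK-p25, so the counts of higher genes were near the share over all genes. The Src-family kinases Fgr and Fyn and the ITAM adaptor Tyrobp (DAP12) rose. Fgr was 27.5, 19.9 and 34.7 FPKM in the CK-p25 PU.1 cKO libraries, 51.4, 35.7 and 59.0 FPKM in CK-p25 libraries, and 3.17, 3.36 and 2.33 FPKM in CK libraries, which puts every library with p25 above every CK library. Its log2 difference from CK was 2.82 ± 0.24 in CK-p25 PU.1 cKO (limma adjusted p = 0.000101) and 3.63 ± 0.24 in CK-p25 (limma adjusted p = 3.35e-05). Tyrobp, which pairs with other receptors as Fcer1g does, rose by 1.01 ± 0.16 in CK-p25 PU.1 cKO (limma adjusted p = 0.00189) and by 1.09 ± 0.16 in CK-p25 (limma adjusted p = 0.00137). The first of these Tyrobp calls was lost without the low-value filter (limma adjusted p = 0.0591). Fyn rose by 1.51 and 1.39, and the adaptor Lat2 by 0.78 and 0.84, in CK-p25 PU.1 cKO and CK-p25. Ptpn6 (SHP-1), a phosphatase of inhibitory receptors, rose by 0.73 and 0.93, and under quantile normalization its CK-p25 difference was 0.48 (limma adjusted p = 0.0696). The Lat2 call in CK-p25 PU.1 cKO was lost in 2 of 9 fits without 1 library.

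Several parts of the pathway below the receptors were lower. Syk was 26.9, 24.7 and 25.1 FPKM in the CK-p25 PU.1 cKO libraries, 28.2, 25.2 and 16.4 FPKM in CK-p25 libraries, and 33.6, 41.8 and 40.8 FPKM in CK libraries, without overlap with CK. Its log2 difference from CK was -0.58 in CK-p25 PU.1 cKO (limma adjusted p = 0.0457) and -0.74 ± 0.18 in CK-p25 (limma adjusted p = 0.0175). The first call was lost in 7 of 9 fits without 1 library, with adjusted p up to 0.136, and the second in 2 of 9, with adjusted p up to 0.0643. Inpp5d, the phosphatase used by Fcgr2b, was lower by -0.59 ± 0.16 in CK-p25 (limma adjusted p = 0.0270), a call lost in 3 of 9 such fits, and its difference was -0.44 in CK-p25 PU.1 cKO (limma adjusted p = 0.0768). That difference passed under quantile normalization (-0.82, limma adjusted p = 0.00517), in a fit of these 2 groups alone (-0.44, limma adjusted p = 0.00276) and without CK-p25 replicate 3 (-0.44, limma adjusted p = 0.00118). The inhibitory adaptor Dok3 fell by 1.14 and 1.26, the phosphoinositide 3-kinase subunits Pik3r5 by 1.11 and 0.97 and Pik3cg by 0.67 and 0.83, and Csk, the kinase that restrains Src-family kinases, by 0.72 and 0.83 in CK-p25 PU.1 cKO and CK-p25. Wasf2, an actin regulator, fell by 0.99 in CK-p25, a call lost in 3 of 9 fits without 1 library. Between CK-p25 PU.1 cKO and CK-p25, 0 of 36 passed; the log2 difference was -0.07 for Tyrobp, 0.16 for Syk and 0.15 for Inpp5d.

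**Figure D5:**
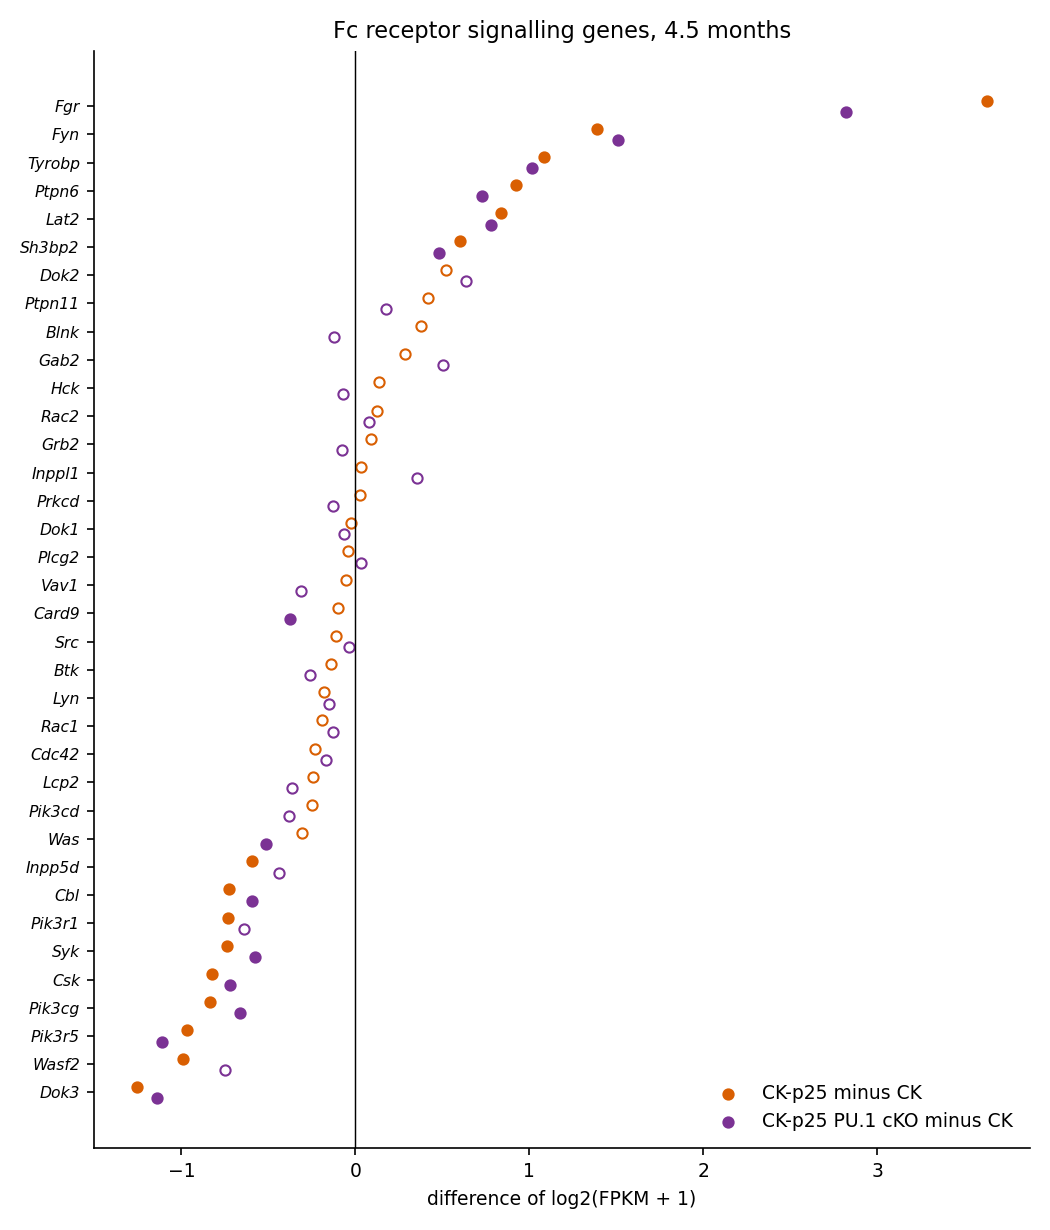
Log2 differences of the 36 Fc receptor signalling genes tested at 4.5 months, 1 row per gene and 1 colour per comparison with CK, filled where the limma adjusted p was below 0.05 and open elsewhere, in order of the CK-p25 difference. Fgr, Fyn and Tyrobp lie right of 0 and Dok3, Pik3r5 and Syk left of 0 in both comparisons with CK.

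At 3 months 12 of 37 signalling genes were higher and 6 lower in labelled PU.1 cKO (median 0.51), where 12.4% of all genes tested were higher and 17.8% lower, so the count of lower genes was near the share over all genes. Syk was higher by 1.28 ± 0.36 (limma adjusted p = 0.0356) and Inpp5d by 1.12 ± 0.27 (limma adjusted p = 0.0208), and each call was lost in 4 of 6 fits without 1 library. Pik3r5, Pik3cd and the adaptor Dok1 were higher by 2.03, 1.34 and 1.21, with the Pik3cd call lost in 4 of 6 such fits. Dok2 was lower by -4.01 ± 0.47 (limma adjusted p = 0.00141): it was 2.68, 0.676 and 4.80 FPKM in labelled PU.1 cKO and 63.6, 34.2 and 65.4 FPKM in labelled control libraries. Fyn differed by -1.32, Lat2 by -1.02 and Fgr by -1.71 (limma adjusted p = 0.0474), and the Lat2 and Fgr calls were each lost in 5 of 6 such fits. Tyrobp did not pass (0.15, limma adjusted p = 0.665), and its sign turned under quantile normalization (-0.23).

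Among other immunoglobulin receptors, 3 of the 13 listed were expressed enough to be tested. Fcrl1 was 13.5, 14.8 and 13.5 FPKM in the CK-p25 PU.1 cKO libraries, 19.5, 16.7 and 16.5 FPKM in CK-p25 libraries, and 34.2, 32.2 and 36.2 FPKM in CK libraries, with no overlap between any pair of groups. Against CK it fell by 1.23 ± 0.09 in CK-p25 PU.1 cKO (limma adjusted p = 5.73e-05) and by 0.93 ± 0.09 in CK-p25 (limma adjusted p = 0.000227). Between CK-p25 PU.1 cKO and CK-p25 the test called 0% of all genes, so Fcrl1 did not pass there. In that comparison 4.56% of all genes were lower without overlap. At 3 months Fcrl1 was 64.3, 50.7 and 58.7 FPKM in labelled PU.1 cKO and 6.81, 5.97 and 5.13 FPKM in labelled control libraries, a log2 difference of 3.08 ± 0.18 (limma adjusted p = 0.000106). Fcrls, a microglial Fc receptor-like gene that is also in the microglial marker list, fell by 0.62 ± 0.10 in CK-p25 PU.1 cKO against CK (limma adjusted p = 0.00296). It averaged 1416 FPKM in CK-p25 PU.1 cKO, 2015 FPKM in CK-p25 and 2166 FPKM in CK, and its CK-p25 difference from CK did not pass. Compared directly between CK-p25 PU.1 cKO and CK-p25, 0 of the 3 receptors tested passed, Fcrls among them. At 3 months Fcrls was higher by 1.11 ± 0.27 in labelled PU.1 cKO (limma adjusted p = 0.0207). Trim21, a cytosolic antibody receptor, was higher by 0.67 ± 0.16 there (limma adjusted p = 0.0188). These 3-month calls were lost in 4 of 6 fits without 1 library for Fcrls and in 3 of 6 for Trim21.

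Of 17 listed regulators of Fc receptor genes, 4 were higher and 4 lower in CK-p25 PU.1 cKO than in CK, and 1 was higher and 4 lower in CK-p25 than in CK. The shares over all genes tested were 17.8% higher and 13.3% lower in CK-p25 PU.1 cKO, and 17.6% higher and 13.7% lower in CK-p25. With 17 genes, these counts are read as a description only. Of the receptor genes for cytokines that act on Fc receptor levels, Tgfbr1 fell by 0.79 and 1.11, Ifngr1 by 0.80 and 0.81, Il10ra by 0.74 and 0.67, and the factor Irf5 by 0.58 and 0.51 in CK-p25 PU.1 cKO and CK-p25. Cebpb, Tgfbr2 and Jak2 rose by 0.60, 0.60 and 0.35 in CK-p25 PU.1 cKO. In that comparison the call was lost in 6 of 9 fits without 1 library for Tgfbr1, in 5 for Tgfbr2 and in 4 each for Cebpb and Jak2. At 3 months 7 of 17 were higher and 1 lower in labelled PU.1 cKO (12.4% and 17.8% of all genes), with Tgfbr1 at 2.35, Il10ra at 2.33, Cebpa at 1.72, Ifngr1 at 1.50 and the complement receptor C5ar1 at -1.35, whose call was lost in 3 of 6 such fits.

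In the RefSeq annotation (GRCm38.p6) Fcgr2b, Fcgr4 and Fcgr3 follow each other on chromosome 1, so the direct neighbours of Fcgr4 are Fcgr2b, which also rose in CK-p25 (0.91), and Fcgr3, whose groups overlapped (0.22).

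Likeness of profile was measured over the 9 libraries at 4.5 months as the root mean square distance of centred log2(FPKM + 1), among 10083 named genes. The nearest to Fcgr4 were Klrb1b, a lectin-like receptor of natural killer cells, Il18bp, the binding protein of interleukin 18, and Rtp4, an interferon-induced gene, at distances of 0.196, 0.240 and 0.263, where the median over all genes was 1.38. Those nearest to Fcgr2b were Ddx58, which encodes the RNA sensor RIG-I, at 0.0896, Gltscr2 at 0.0912 and Trim34a at 0.109 (median 0.521). Those nearest to Fcer1g were Gabarap at 0.0429, Trappc2l at 0.0455 and Fis1 at 0.0518 (median 0.471). For Fcgr1 they were Mrps18c, Psmb10 and Adck4, for Fcgr3 Smarcb1, Ilk and Nkiras2, and for Fcgrt Rpusd3, Pde7a and Rhbdf1, all at distances up to 0.137. Small distances are easily reached by genes that vary little, as Fcgr1, Fcgr3 and Fcgrt did. Fcgr4 differed strongly from CK, which by this measure sets it far from most genes. Its nearest genes are mainly those with a like difference. Klrb1b averaged 7.51 FPKM in CK-p25 PU.1 cKO, 8.95 FPKM in CK-p25 and 0.34 FPKM in CK. It reached the filter of 1 FPKM through libraries with p25, so the filter favoured its place in this list.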

How the data were processed

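Sorted hippocampal microglia were profiled from low-input, unstranded full-length cDNA, per the labels' protocols. The authors deposited FPKM per gene in 2 tables. TopHat, Bowtie, Cufflinks 2.0.0 and the build mm9 are named per the submitters' processing notes; how multi-mapping reads were counted is not given in the sources used here. FPKM carry no read depth, so no counting interval is given. From these values log2(FPKM + 1) was computed, genes averaging 1 FPKM or more were kept (10845 at 3 months, 10894 at 4.5 months), and limma 3.58.1 in R 4.3.3 was fitted with a mean-variance trend, each table on its own, with the 9 libraries at 4.5 months in 1 model. P-values were adjusted by Benjamini-Hochberg over all genes tested, with a threshold of 0.05. The procedure was tested on simulated data. The members and lists were chosen with earlier results of these data known. Beyond the 6 members, the text names up to 4 genes of each list per direction and comparison, those past the threshold with the largest differences, together with Tyrobp, Syk, Inpp5d, B2m and Spi1, the 3 nearest profiles of each member, and neighbouring protein-coding genes; Csk, Ptpn6 and Lat2 were chosen in 1 comparison with CK and are given for both. Alternatives were another pseudocount, no filter or a filter at 5 FPKM, quantile or median scaling, no trend, a replicate block, fewer libraries in the fit, and each library left out. The 4 ChIP samples were not analysed here, and some genes the rule selects are not reported here.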

Additional observations from a re-analysis of the deposited data

How the results depend on the processing

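In CK-p25 PU.1 cKO against CK and in CK-p25 against CK, the calls of Fcgr2b, Fcgr4 and Fcer1g were kept in all 9 fits without 1 library. Quantile normalization gave Fcgr2b 0.46 in CK-p25 PU.1 cKO (adjusted p = 0.110) and 0.46 in CK-p25 (0.112), below the threshold, and turned the sign of Fcgr3 to -0.23 and -0.30 and of Spi1 in CK-p25 to -0.39. With no filter Fcer1g in CK-p25 was at 0.76 (adjusted p = 0.0532). At 3 months Fcgr3 was lost with no filter (1.13, adjusted p = 0.0571), while quantile normalization called Fcgr1 (1.02) and Fcer1g (-0.61) and turned Tyrobp to -0.23; median centring turned B2m to 0.0755.

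Deviations of same-numbered replicates correlated between -0.0487 and 0.166 across groups, and those of differently numbered replicates between -0.264 and 0.154. These ranges do not settle whether replicate numbers pair libraries. With a replicate block, Fcgr1 passed in CK-p25 PU.1 cKO (0.28, adjusted p = 0.0443) and in CK-p25 (0.36, adjusted p = 0.0194), Fcgrt passed in CK-p25 (-0.41, adjusted p = 0.0458), and no other member's call changed.

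Between CK-p25 PU.1 cKO and CK-p25, 2 genes were called with no filter, 1 with quantile normalization and 2 with the compared libraries only, against 0; no member was among the calls. Quantile normalization turned Fcgr2b to 0.00078 and Fcgr3 to 0.0646. Without 1 library each, the count ranged from 0 to 25 (25 without CK-p25 PU.1 cKO replicate 3), Fcgr1 from -0.22 to 0.0362, Fcgr2b from -0.13 to 0.10, Fcgr3 from -0.29 to 0.0150, Fcgr4 from -0.66 to 0.0234, Fcer1g from -0.11 to 0.14, Fcgrt from -0.11 to 0.27, Tyrobp from -0.19 to 0.0488, Syk from -0.0597 to 0.32, Inpp5d from -0.0609 to 0.26 and B2m from -0.10 to 0.31. In CK-p25 against CK, Fcgr1 ranged from 0.26 to 0.49, Fcgrt from -0.63 to -0.25 and Spi1 from -0.10 to 0.16. At 3 months the count ranged from 1540 to 4731 genes, around 3269, Fcgr1 from 0.36 to 1.00, Fcgr3 from 0.94 to 1.24, Fcgr4 from -0.55 to 0.0428, Tyrobp from -0.0516 to 0.31 and B2m from -0.18 to 0.0865. The cause of these changes was not tested.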
